A study of Mus musculus with 9 samples.

Results

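Transcripts of red blood cells were followed in whole mouse hearts through 5 genes: the adult alpha globins Hba-a1 and Hba-a2, the adult beta globins Hbb-bs and Hbb-bt, and Alas2, the erythroid enzyme of the first step of haem synthesis. They were chosen by name, with their levels in these same hearts already known, and are 5 of the 13646 genes listed in both deposited gene tables. Their levels and differences are therefore given as a description, without a test. The study used RNA-seq of heart tissue from C57BL/6 mice, male by the study's methods and 10 weeks old by the labels, to compare pressure overload with and without puerarin, an isoflavone glycoside of kudzu root. The TAC+PUE group (n = 3 mice) had transverse aortic constriction (TAC), a surgical narrowing of the aortic arch that loads the left ventricle, and daily intraperitoneal puerarin at 100 mg/kg that began 3 days before surgery and lasted until 21 days after it. The TAC group (n = 3 mice) had the constriction with saline injections, and the sham group (n = 3 mice) had saline and the operation with no constriction. All hearts were taken on day 21. Whether blood was flushed from the hearts, and whether globin transcripts or ribosomal RNA were depleted from the libraries, is not stated in any source read for this account.

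Haemoglobin is built from alpha and beta globin chains, each holding a haem group, and red cell precursors in the bone marrow make nearly all of it. Mature mouse red cells have no nucleus, and young ones (reticulocytes) still carry globin mRNA into the blood, so the RNA of any organ that holds blood contains these transcripts. Alpha globin is also known from the endothelium of small arteries, where it controls the release of nitric oxide. In whole hearts more red cells, more RNA in each red cell and expression in other cells cannot be told apart.

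The stretches of DNA just before the start sites of the genes are shown here because all 5 members are compared side by side below, and because the paired copies differ in how alike these stretches are. Each is the 250 bases before the start site, 5′ to 3′ on the strand of the gene, from the RefSeq promoter table of build GRCm38.p6, in which all 5 genes matched. They lie at chr11:32283422-32283671 (plus strand) for Hba-a1, chr7:103827929-103828178 (minus strand) for Hbb-bs, chr7:103813924-103814173 (minus strand) for Hbb-bt and chrX:150547167-150547416 (plus strand) for Alas2. Capitals mark matches on either strand to GATAA (read TTATC on the other strand), to CACCC (read GGGTG), to CCAAT (read ATTGG) and to TATAA (read TTATA).
Hba-a1: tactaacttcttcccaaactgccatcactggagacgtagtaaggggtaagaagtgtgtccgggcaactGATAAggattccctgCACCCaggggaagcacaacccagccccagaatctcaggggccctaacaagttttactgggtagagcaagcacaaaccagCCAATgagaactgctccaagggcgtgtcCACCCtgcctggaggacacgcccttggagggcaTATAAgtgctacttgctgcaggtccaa
Hbb-bs: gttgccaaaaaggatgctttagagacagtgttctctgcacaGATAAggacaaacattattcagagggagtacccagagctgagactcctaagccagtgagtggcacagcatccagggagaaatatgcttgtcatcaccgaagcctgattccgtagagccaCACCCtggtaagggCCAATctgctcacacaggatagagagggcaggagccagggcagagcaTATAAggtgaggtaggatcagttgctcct
Hbb-bt: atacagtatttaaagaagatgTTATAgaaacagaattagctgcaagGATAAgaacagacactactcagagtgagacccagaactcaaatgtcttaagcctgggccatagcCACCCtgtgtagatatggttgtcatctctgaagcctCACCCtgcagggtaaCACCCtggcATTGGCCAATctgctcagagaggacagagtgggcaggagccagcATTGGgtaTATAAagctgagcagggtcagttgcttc
Alas2: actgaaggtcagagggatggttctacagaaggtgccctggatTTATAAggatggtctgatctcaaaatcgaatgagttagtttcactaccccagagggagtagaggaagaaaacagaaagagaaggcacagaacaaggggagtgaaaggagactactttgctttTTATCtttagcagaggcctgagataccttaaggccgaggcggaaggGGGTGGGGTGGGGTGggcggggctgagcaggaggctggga
The stretch before Hba-a2, at chr11:32296242-32296491 (plus strand), is the same as that of Hba-a1 in all 247 bases that overlap after a shift of 3 bases. The stretches of Hbb-bs and Hbb-bt agreed at 51.0% of 249 bases compared without gaps. GATAA was found before all 5 genes and before 22.6% of the 32851 promoters in the table, CACCC before all 5 and 52.0%, TATAA before all 5 and 22.8%, and CCAAT before the 4 globins but not Alas2 and before 33.8%. All 4 motifs together were found before the 4 globins and before 0.968% of all promoters. In Alas2 the TATAA matches of the opposite strands overlap each other, and in Hbb-bt a pair of CCAAT matches on opposite strands lie end to end. A match is only a match of letters in this window.

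Levels are given in FPKM (fragments per kilobase of transcript scaled to the mapped fragments of the library), a per-length scale on which genes can be compared, in the order of replicates 1, 2 and 3. The headers of the tables say FPKM while the study's methods name TPM. The values of the 13646 genes in both tables sum to 187444 to 287728 per heart, where TPM over all genes would sum to the same total in each. They were read as FPKM. The TAC values are identical in the table shared with sham and the table shared with TAC+PUE, so all 9 hearts are set side by side on 1 scale. Across the hearts the mitochondrially encoded mRNAs made up 14.2% to 26.0% of the summed FPKM in TAC+PUE, 2.81% to 7.04% in TAC and 31.6% to 42.9% in sham. A pair of rRNA-like transcripts made up 1.11% to 2.52% in TAC+PUE, 4.81% to 7.50% in TAC and 0.520% to 1.11% in sham. Sequencing depth is unknown from FPKM. Myl7, a myosin light chain known from atrial muscle, was at 27.4, 708 and 245 FPKM in TAC+PUE, 79.8, 1.60 and 198 FPKM in TAC, and 1.07, 1.06 and 0.857 FPKM in sham. The hearts with constriction differed widely in it and the sham hearts did not. The part of each of these in the results below was not tested.

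The alpha globins were among the most abundant transcripts of the overloaded hearts. Hba-a1 was at 404, 934 and 1353 FPKM in TAC+PUE, 1575, 1459 and 1924 FPKM in TAC, and 249.9, 326 and 268 FPKM in sham. Hba-a2 was at 433, 1178 and 1940 FPKM in TAC+PUE, 2316, 1913 and 2978 FPKM in TAC, and 304, 357 and 298 FPKM in sham. In each of these genes every sham heart was below every heart of both groups with constriction, and TAC+PUE replicate 1 was the heart with constriction closest to sham. All 3 TAC+PUE hearts were below all 3 TAC hearts for Hba-a1, while for Hba-a2 TAC+PUE replicate 3 was just above TAC replicate 2. Ranked by FPKM among the 13646 genes, Hba-a2 held places 16 to 45 in TAC+PUE, 6 to 7 in TAC and 50 to 59 in sham. The copies are known to encode near-identical chains, so the split of reads between Hba-a1 and Hba-a2 is uncertain. Their transcript sequences were not compared here. Their sum was 2081 ± 1228 FPKM in TAC+PUE, 4055 ± 778 FPKM in TAC and 600.8 ± 71.3 FPKM in sham (mean ± SD, n = 3 each).

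The beta globins showed the same order of sham and TAC hearts but overlapped more between TAC+PUE and TAC. Hbb-bs was at 482, 1037 and 1955 FPKM in TAC+PUE, 1151, 1126 and 1740 FPKM in TAC, and 352, 418 and 356 FPKM in sham. Hbb-bt was at 196, 479 and 757 FPKM in TAC+PUE, 795, 749 and 997 FPKM in TAC, and 141, 171 and 135 FPKM in sham. TAC+PUE replicate 3 had the highest Hbb-bs level of all 9 hearts, while TAC+PUE replicates 1 and 2 were below every TAC heart. For Hbb-bt, TAC+PUE replicate 3 was inside the TAC range, between TAC replicates 2 and 1. The sum of both beta globins was 1635 ± 1023 FPKM in TAC+PUE, 2186 ± 479 FPKM in TAC and 524 ± 56.3 FPKM in sham (mean ± SD, n = 3 each). These genes are also close copies, and reads may have been split between them.

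Alas2 followed the globins at a far lower level. It was at 12.6, 25.6 and 62.5 FPKM in TAC+PUE, 26.9, 28.8 and 50.5 FPKM in TAC, and 8.91, 10.7 and 9.50 FPKM in sham. The highest of the 9 hearts was TAC+PUE replicate 3 and the lowest heart with constriction was TAC+PUE replicate 1, so the TAC+PUE hearts reached beyond the TAC range at both ends.

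**Figure D1:**
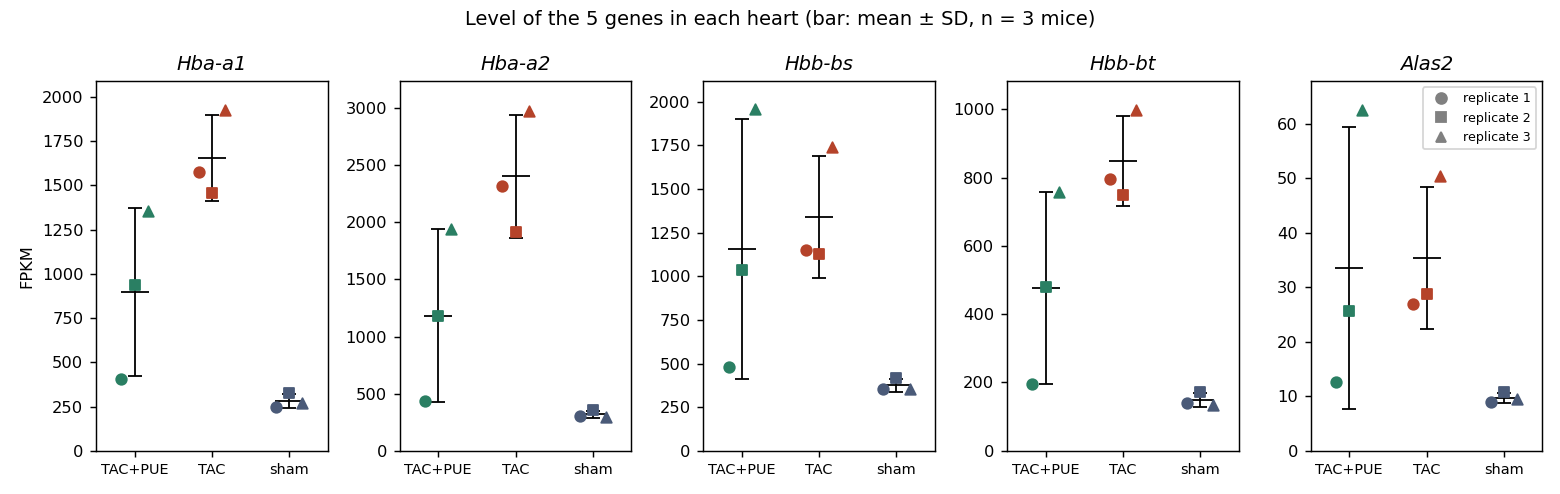
Level in FPKM (vertical axis, linear, from 0) of each of the 5 genes in every heart of the TAC+PUE, TAC and sham groups. Symbols are replicates 1 to 3, and bars are the mean ± SD (n = 3 mice). Sham hearts lie close together at the bottom of each panel, and the TAC+PUE hearts spread upward from near the sham level. Their highest heart is below the TAC range for Hba-a1, inside it for Hba-a2 and Hbb-bt and above it for Hbb-bs and Alas2.

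The spread between hearts differed by group. The highest TAC+PUE heart was 3.35 to 4.96 times the lowest over the 5 genes, against 1.32 to 1.87 times in TAC and 1.19 to 1.30 times in sham. The rank of the TAC+PUE hearts was the same for all 5 genes, with replicate 1 lowest and replicate 3 highest. Replicate 3 was also the highest TAC heart and replicate 2 the highest sham heart for all 5. Summed over the 4 globins, TAC+PUE hearts had 1515, 3628 and 6006 FPKM, TAC hearts 5837, 5247 and 7640 FPKM, and sham hearts 1047, 1272 and 1056 FPKM. As a share of the summed FPKM of the 13646 genes in both tables this was 0.603%, 1.51% and 2.43% in TAC+PUE, 3.11%, 2.51% and 3.46% in TAC, and 0.369%, 0.490% and 0.367% in sham. With the mitochondrially encoded and rRNA-like transcripts taken out of the total, the share was 0.827%, 1.82% and 3.21% in TAC+PUE, 3.47%, 2.79% and 3.93% in TAC, and 0.638%, 0.729% and 0.649% in sham. On that smaller total the sham hearts remained the lowest, and TAC+PUE replicate 3 came inside the TAC range.

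Pressure overload was compared with sham on the log2(FPKM + 1) scale, with standard errors (SE) from limma fitted over all 11687 genes that reached 1 FPKM in at least 3 of the 6 hearts. The TAC minus sham difference was 2.55 (SE 0.17) for Hba-a1, 2.89 (SE 0.19) for Hba-a2, 1.81 (SE 0.19) for Hbb-bs, 2.5 (SE 0.16) for Hbb-bt and 1.71 (SE 0.21) for Alas2. In FPKM the ratio of the TAC mean to the sham mean was 5.88 for Hba-a1, 7.52 for Hba-a2, 3.57 for Hbb-bs, 5.70 for Hbb-bt and 3.64 for Alas2. The groups did not overlap for 5 of 5 genes, all higher in TAC. Of all genes tested, 28.4% had TAC entirely above sham and 41.9% entirely below. As the genes were chosen on this contrast, nothing is read from that count. The median difference of all genes was -0.12.

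The puerarin comparison set TAC+PUE against TAC in the same way, over 11788 genes. The TAC+PUE minus TAC difference was -1.04 (SE 0.36) for Hba-a1, -1.24 (SE 0.43) for Hba-a2, -0.40 (SE 0.41) for Hbb-bs, -1.02 (SE 0.39) for Hbb-bt and -0.30 (SE 0.45) for Alas2, beside a median of 0.24 over all genes. The groups did not overlap for 1 of the 5 genes, Hba-a1, with TAC+PUE below TAC, and of all genes tested 10.1% had TAC+PUE entirely below TAC and 43.3% entirely above. Nothing is read from this count either. The SE of Hbb-bs and of Alas2 is about as large as the difference itself or larger. A single heart, TAC+PUE replicate 1, sets much of these differences: without it they were -0.55 for Hba-a1, -0.64 for Hba-a2, 0.12 for Hbb-bs, -0.48 for Hbb-bt and 0.23 for Alas2. Without TAC+PUE replicate 3 Hbb-bs was at -0.89 and Alas2 at -0.88, and without TAC replicate 3 Hbb-bs was at -0.20 and Alas2 at -0.02. Without the libraries of at least 100 FPKM of Myl7, which leaves TAC+PUE replicate 1 against TAC replicates 1 and 2, they were -1.90 for Hba-a1, -2.28 for Hba-a2, -1.24 for Hbb-bs, -1.98 for Hbb-bt and -1.09 for Alas2. TAC+PUE and sham stand in separate tables and were set side by side without a fit. Every TAC+PUE heart was above every sham heart for all 5 genes, and the difference of the group means was 1.51 for Hba-a1, 1.64 for Hba-a2, 1.40 for Hbb-bs, 1.48 for Hbb-bt and 1.41 for Alas2. Both comparisons share the TAC hearts.

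Ratios between the members inside a heart do not depend on how a library was scaled. The summed alpha globins per summed beta globins were 1.24, 1.39 and 1.21 in TAC+PUE, 2.0, 1.80 and 1.79 in TAC, and 1.12, 1.16 and 1.15 in sham. The TAC hearts stood apart from both other groups, and the TAC+PUE hearts were all slightly above the sham hearts. Hbb-bs per Hbb-bt was 2.47, 2.16 and 2.58 in TAC+PUE, 1.45, 1.5 and 1.75 in TAC, and 2.5, 2.45 and 2.64 in sham. Here too TAC was separate, with TAC+PUE and sham overlapping. Hba-a2 per Hba-a1 was 1.07, 1.26 and 1.43 in TAC+PUE, 1.47, 1.31 and 1.55 in TAC, and 1.22, 1.10 and 1.11 in sham, with TAC+PUE spanning most of both other ranges. Alas2 per 1000 FPKM of globin was 8.31, 7.06 and 10.4 FPKM in TAC+PUE, 4.62, 5.48 and 6.61 FPKM in TAC, and 8.52, 8.44 and 9.0 FPKM in sham, with TAC again below both. TAC+PUE replicate 3 had a globin sum between TAC replicates 1 and 3, yet its alpha to beta, Hbb-bs to Hbb-bt and Alas2 to globin ratios lay outside the TAC range. The TAC hearts also had the lowest mitochondrial and the highest rRNA-like shares, and the part of these in the ratios was not tested. The ratios within each pair of copies also depend on how reads were split between the copies, which is uncertain. Otherwise a ratio within a library shows unequal change and not which gene changed.

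**Figure D2:**
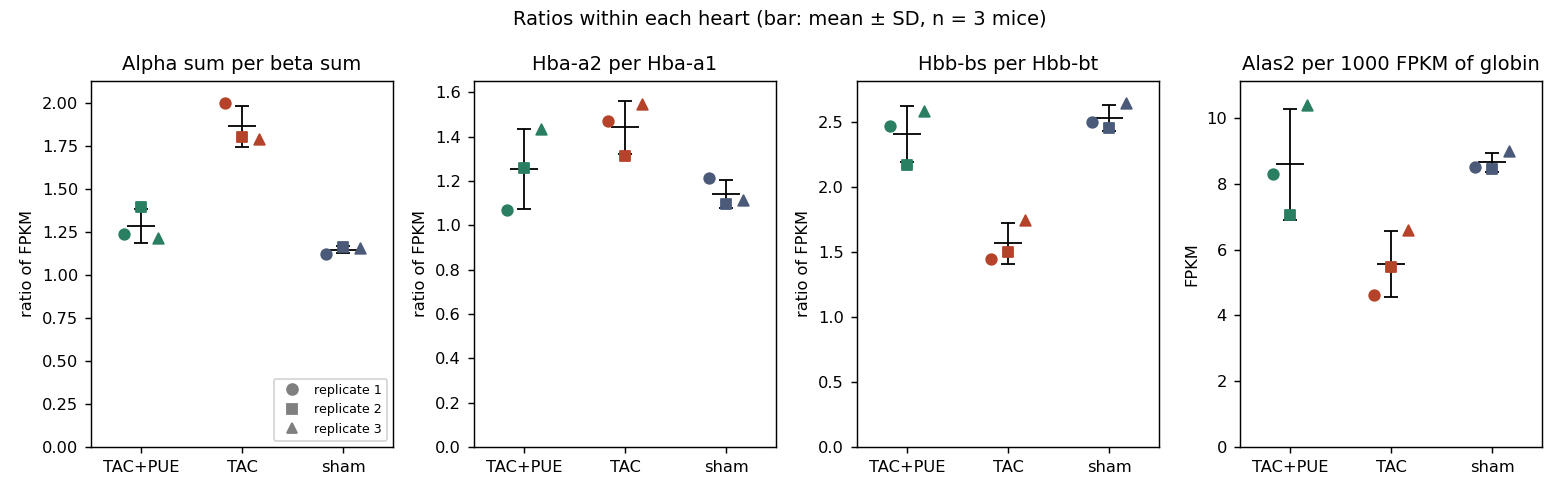
Ratios inside each heart (vertical axes, linear, from 0): summed alpha globins per summed beta globins, Hba-a2 per Hba-a1, Hbb-bs per Hbb-bt, each as a ratio of FPKM, and Alas2 in FPKM per 1000 FPKM of the 4 globins. Symbols are replicates and bars the mean ± SD (n = 3 mice). TAC hearts are above both other groups for alpha per beta and below them for Hbb-bs per Hbb-bt and for Alas2 per globin. The split of reads between the copies of a pair is uncertain.

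Other genes of red cells were counted by a list of names. Of 25 membrane and erythroid identity genes listed by name, 13 were in both tables and 9 were abundant enough to test. In TAC against sham 1 of the 9 rose, 1 fell and 7 did not pass the threshold (limma, adjusted p under 0.05), beside 25.3% of all genes called higher, 37.7% called lower and 63% called in all. Slc4a1, the anion exchanger band 3 and a defining red cell membrane protein, was at 4.23, 2.78 and 6.74 FPKM in TAC against 0.471, 0.568 and 0.479 FPKM in sham, a difference of 1.83. It is the gene called higher, but it met the filter of 1 FPKM in 3 hearts only through TAC and so could be tested only by being higher there, and nothing is read from that call. The counts move with the scaling of the libraries: in TAC 3 genes of this list rose with median-ratio scaling and 8 rose once rRNA-like transcripts were taken out and totals made equal, under which 36.1% and 49.0% of all genes were called higher. Against TAC, 0 of the 9 rose in TAC+PUE, 1 fell and 8 did not pass, beside 32.9% of all genes called higher, 5.45% lower and 38.4% in all. The gene that fell was Slc4a1, at 0.543, 1.43 and 2.10 FPKM in TAC+PUE, with a difference of -1.24 (limma adjusted p = 0.00789). Singled out after their values were seen, Nfe2 (an erythroid and megakaryocyte transcription factor) and Trim10, both listed but below the filter, were higher in every TAC heart than in every sham heart. Trim10, known from terminal erythroid differentiation, was at 0.331, 0.351 and 0.589 FPKM in TAC+PUE, 1.55, 0.945 and 1.56 FPKM in TAC, and 0.109, 0.137 and 0.150 FPKM in sham.

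Genes that are abundant in reticulocytes but also used by other cells were counted in the same way. In TAC against sham 7 of 15 rose, 2 fell and 6 did not pass, beside 25.3% of all genes called higher and 37.7% lower. Among those that rose were Ube2l6, a ubiquitin-like conjugating enzyme (1.44, limma adjusted p = 2.49e-04), Isg20, an exonuclease (1.03, limma adjusted p = 2.92e-04), and Mkrn1, a ubiquitin ligase (0.92, limma adjusted p = 0.00102). Puerarin-treated hearts, set against TAC, had 3 of 15 that rose, 1 that fell and 11 that did not pass. Of all genes, 32.9% were called higher there and 5.45% lower. Bcl2l1, the survival factor that keeps red cell precursors alive, fell by 0.70, while Bnip3l, needed to clear mitochondria from reticulocytes, rose by 0.60, Ucp2, a mitochondrial carrier, by 0.60 and Cat, catalase, by 0.56 on the log2 scale (limma adjusted p = 0.0224, 0.0294, 0.0300 and 0.0195 in that order). None of these 4 calls held with every heart left out in turn, and those of Bnip3l, Ucp2 and Cat were also lost with median-ratio scaling (0.28 for Bnip3l, 0.28 for Ucp2 and 0.21 for Cat) or with rRNA-like transcripts removed (0.31, 0.32 and 0.25 in that order). Bcl2l1 was lost without TAC+PUE replicate 1 (-0.61) or TAC replicate 2 (-0.59) or 3 (-0.57), and Cat without TAC+PUE replicate 1 (0.54) or 3 (0.51). Bnip3l was lost without TAC+PUE replicate 1 or 3 (0.57 each) or TAC replicate 1 (0.44) or 2 (0.56), and Ucp2 without TAC+PUE replicate 2 (0.42) or 3 (0.59) or TAC replicate 1 or 2 (0.56 each).

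The other globins of the heart are not red cell genes. Of 11 further family members listed, Mb (myoglobin, the oxygen store of muscle) and Cygb (cytoglobin, of fibroblasts and vessel walls) were in the tables. Mb was at 2775, 3349 and 3072 FPKM in TAC+PUE, 3719, 4240 and 3739 FPKM in TAC, and 2765, 3165 and 2809 FPKM in sham. It did not pass the threshold in either comparison (TAC minus sham 0.42, limma adjusted p = 0.0585, and TAC+PUE minus TAC -0.35, limma adjusted p = 0.153), though under the other scalings of the libraries the lower TAC+PUE level passed (-0.40 to -0.71). Cygb rose in TAC against sham by 0.77 (limma adjusted p = 2.42e-04), at 62.0, 63.6 and 65.0 FPKM in TAC and 35.7, 38.9 and 35.8 FPKM in sham, and its TAC+PUE minus TAC difference was -0.15 (limma adjusted p = 0.523).

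Genes of haem synthesis were counted next. In TAC against sham 7 of 18 rose, 2 fell and 9 did not pass, beside 25.3% of all genes called higher, 37.7% lower and 63% in all. Alas1, the housekeeping counterpart of Alas2, rose by 0.89, and Glrx5, of iron-sulphur cluster assembly, by 0.82, while Clpx, the unfoldase that activates ALAS, fell by 1.15 on the log2 scale (limma adjusted p of 2.19e-04 for Alas1, 4.18e-04 for Glrx5 and 1.92e-04 for Clpx). The comparison of TAC+PUE with TAC had 2 of 18 that rose, 4 that fell and 12 that did not pass. The shares of all genes there were 32.9% higher and 5.45% lower. Clpx rose by 0.73 on the log2 scale, while Slc25a38, the mitochondrial glycine importer, fell by 0.60 and Glrx5 by 0.55 (limma adjusted p of 0.00966 for Clpx, 0.0271 for Slc25a38 and 0.0166 for Glrx5). The calls of Slc25a38 and Glrx5 were lost without TAC+PUE replicate 1 (-0.48 and -0.49), TAC+PUE replicate 3 (-0.52 and -0.53) or TAC replicate 2 (-0.55 and -0.49), and that of Slc25a38 also without TAC replicate 1 (-0.54).

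**Figure D3:**
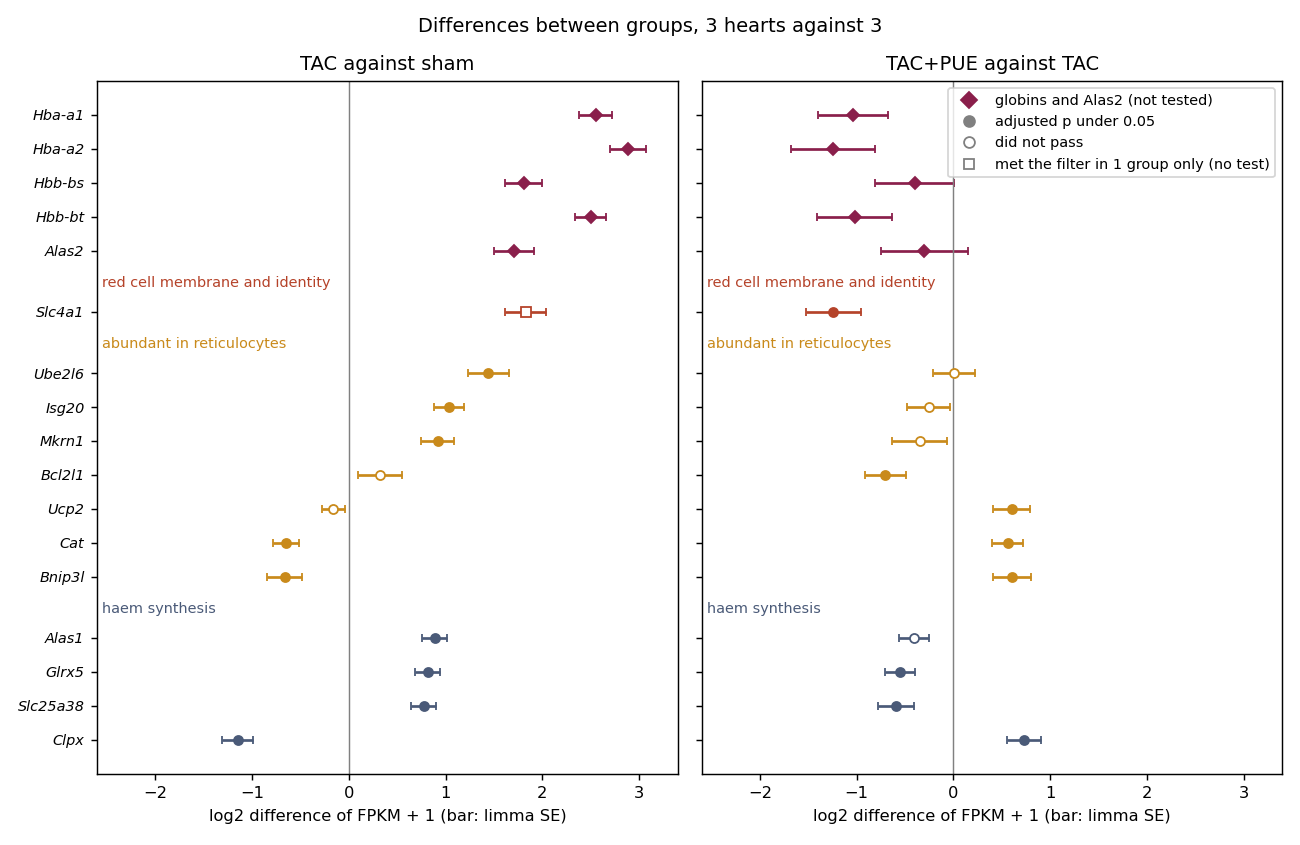
Difference in log2(FPKM + 1) between groups (horizontal axis), TAC minus sham on the left and TAC+PUE minus TAC on the right, with bars for the limma SE (3 hearts against 3). Diamonds are the 5 members, which carry no test, filled circles passed an adjusted p under 0.05 and open circles did not. The open square, Slc4a1 in TAC against sham, met the 1 FPKM filter only through TAC and is shown with no test. Of the 3 lists, the genes named in the text are drawn. The members are the rightmost of the drawn genes in the left panel together with Slc4a1.

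Genes that handle haem and iron after red cells break down were counted as well. Of all genes, 25.3% were called higher and 37.7% lower in TAC against sham, and 32.9% and 5.45% in TAC+PUE against TAC. Of haem breakdown and haemoglobin scavenging genes, 2 of 13 rose, 4 fell and 7 did not pass in TAC against sham. Abcg2, which exports haem, fell by 0.73 and Cd163, the macrophage receptor for haemoglobin bound to haptoglobin, fell by 0.46, while Lrp1, the receptor for haem bound to haemopexin, rose by 0.59 and Blvrb, a biliverdin reductase, by 0.49 on the log2 scale (limma adjusted p of 8.38e-04 for Abcg2, 0.00663 for Cd163, 0.00286 for Lrp1 and 0.00536 for Blvrb). With rRNA-like transcripts removed Cd163 was at -0.02 and its call was lost. For TAC+PUE against TAC the counts were 2 of 14 that rose, 0 that fell and 12 that did not pass. Abcg2 rose by 0.77 (limma adjusted p = 0.00545) and Pgrmc1, a haem-binding membrane protein, by 0.45 (limma adjusted p = 0.0447), the call of Pgrmc1 being lost without each TAC+PUE heart in turn and without TAC replicate 1 or 2 (0.37 to 0.50), and also with median-ratio scaling (0.13) or with rRNA-like transcripts removed (0.16). Of iron uptake, storage and export genes, 1 of 15 rose, 5 fell and 9 did not pass in TAC against sham. Cp (ceruloplasmin, a ferroxidase) fell by 1.85 and Ireb2 (an iron sensor) by 1.23, while Ftl1 (ferritin light chain) rose by 1.12 on the log2 scale (limma adjusted p of 4.30e-05 for Cp, 1.48e-04 for Ireb2 and 0.00315 for Ftl1). With puerarin, against TAC, 4 of 16 rose, 0 fell and 12 did not pass. Cp rose by 1.42, Ireb2 by 1.0 and Pcbp2 (an iron chaperone) by 0.94 on the log2 scale (limma adjusted p of 0.00328 for Cp, 0.00429 for Ireb2 and 0.00814 for Pcbp2). Slc40a1 (ferroportin, the iron exporter) was at 1.5, 1.37 and 1.75 FPKM in TAC+PUE, 0.631, 0.871 and 0.933 FPKM in TAC, and 2.43, 2.13 and 2.36 FPKM in sham. It is 1 of the genes counted as called in each comparison, but it met the filter only through TAC+PUE in the one and only through sham in the other, so nothing is read from its calls.

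Alpha globin is also known from small arteries, so its partners there were read separately. In TAC against sham 3 of 6 rose, 0 fell and 3 did not pass, beside 25.3% of all genes called higher and 37.7% lower. Nos3, endothelial nitric oxide synthase, rose by 0.65 (limma adjusted p = 0.00156), Cyb5r3, the reductase that resets the iron of alpha globin, by 0.55 (limma adjusted p = 0.00186) and its relative Cyb5r1 by 0.46 on the log2 scale (limma adjusted p = 0.0341). Of the same 6, 0 rose in TAC+PUE against TAC, 1 fell (Cyb5r1, by 0.47, limma adjusted p = 0.0497) and 5 did not pass. Of all genes, 32.9% were called higher there and 5.45% lower. Both calls of Cyb5r1 were lost without TAC replicate 2 (0.38 in TAC against sham and -0.38 in TAC+PUE against TAC) or TAC replicate 3 (0.42 and -0.42), the first also without sham replicate 2 (0.41) or 3 (0.37) and the second without TAC+PUE replicate 1 (-0.39) or 3 (-0.44). The first was also lost with rRNA-like and mitochondrially encoded transcripts removed (0.38), and the second with a pseudocount of 0.1 (-0.57) or with no filter (-0.47).

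Markers of other blood and heart cells were read beside the globins. Of 12 platelet markers 11 were in both tables, none of them at 0 in any heart. Their summed level was 26.0, 44.1 and 217 FPKM in TAC+PUE, 102, 52.3 and 177 FPKM in TAC, and 21.4, 23.0 and 22.1 FPKM in sham. The TAC+PUE hearts were ordered as for the globins, with replicate 3 the highest of all 9. In TAC against sham 7 platelet genes were tested and called higher, but 4 of them, Itga2b, Gp9 and Gp1bb among them, met the 1 FPKM filter only through TAC, so nothing is read from this count. Tubb1 (beta-1 tubulin), which met it in both groups, rose by 2.59 on the log2 scale (limma adjusted p = 0.00122). Itga2b (integrin alpha IIb) was at 6.81, 1.91 and 11.2 FPKM in TAC against 0.423, 0.472 and 0.347 FPKM in sham. Gp9, a subunit of the platelet receptor for von Willebrand factor, was at 5.81, 1.83 and 18.9 FPKM in TAC against 0.633, 0.857 and 0.734 FPKM in sham. Of 8 tested in TAC+PUE against TAC, 0 passed in either direction, beside 38.4% of all genes tested. Neutrophil markers were scarce, with 3 of 12 in both tables and sums of 2.22, 3.83 and 14.1 FPKM in TAC+PUE, 3.02, 3.04 and 5.62 FPKM in TAC, and 2.61, 1.26 and 1.57 FPKM in sham. The 1 neutrophil gene tested in TAC against sham, S100a9, rose by 0.63 (limma adjusted p = 0.0242), a call lost without TAC replicate 1 (0.72) or 3 (0.47) or sham replicate 2 (0.45) or 3 (0.56) or with rRNA-like and mitochondrially encoded transcripts removed (0.63), and in TAC+PUE against TAC 0 of 2 passed. Of 12 markers of B and T lymphocytes, 0 were in both tables, and Cd8b1 alone was abundant enough to test in TAC+PUE against TAC. It was at 1.03, 1.78 and 1.60 FPKM in TAC+PUE against 0.364, 0.179 and 0.754 FPKM in TAC and met the filter only through TAC+PUE, so no test of it is given.

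Macrophages take up old red cells. All 10 of their markers were in both tables, of which 6 rose, 1 fell and 3 did not pass in TAC against sham, and 2 rose, 3 fell and 5 did not pass in TAC+PUE against TAC. Their sum was 367 to 475 FPKM in TAC+PUE, 475 to 564 FPKM in TAC and 264 to 294 FPKM in sham. Of all genes, 25.3% were called higher and 37.7% lower in TAC against sham. In TAC+PUE against TAC the shares were 32.9% and 5.45%. C1qc (1.42), C1qb (1.37) and C1qa (1.30), chains of complement C1q, and Cd14 (0.94) rose the most in TAC (limma adjusted p of 3.90e-05 for C1qc, 3.17e-05 for C1qb, 5.14e-05 for C1qa and 5.21e-04 for Cd14). Endothelial markers, 12 of 12 in the tables, had sums that overlapped in all groups, at 300 to 380 FPKM in TAC+PUE, 263 to 326 FPKM in TAC and 303 to 331 FPKM in sham. In TAC against sham 5 of 12 rose, led by Egfl7 (1.13, limma adjusted p = 9.52e-05) and Vwf (von Willebrand factor, 1.07, limma adjusted p = 0.00306), and 6 fell, led by Ptprb (-0.88, limma adjusted p = 6.23e-04) and Tek (the angiopoietin receptor, -0.77, limma adjusted p = 0.00187), the call of Tek being lost with rRNA-like transcripts removed (-0.29). Between TAC+PUE and TAC, 5 rose, 1 fell and 6 did not pass. Cardiomyocyte markers were called higher in 5 and lower in 2 of 8 and hypertrophy markers higher in 4 of 4 in TAC against sham. Of 7 atrial markers, 4 were tested there and called higher, but 1 of these met the filter only through TAC and the other 3 of the 7 missed it, so nothing is read from this count. Between TAC+PUE and TAC, 1 of 8 cardiomyocyte markers rose and 3 fell, and 0 of 7 atrial and 0 of 4 hypertrophy markers passed. All 13 mitochondrially encoded mRNAs fell in TAC against sham and rose in TAC+PUE against TAC, and both rRNA-like transcripts did the opposite. The part of blood held in the tissue, and of each of these cell types, in the globin levels was not tested.

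**Figure D4:**
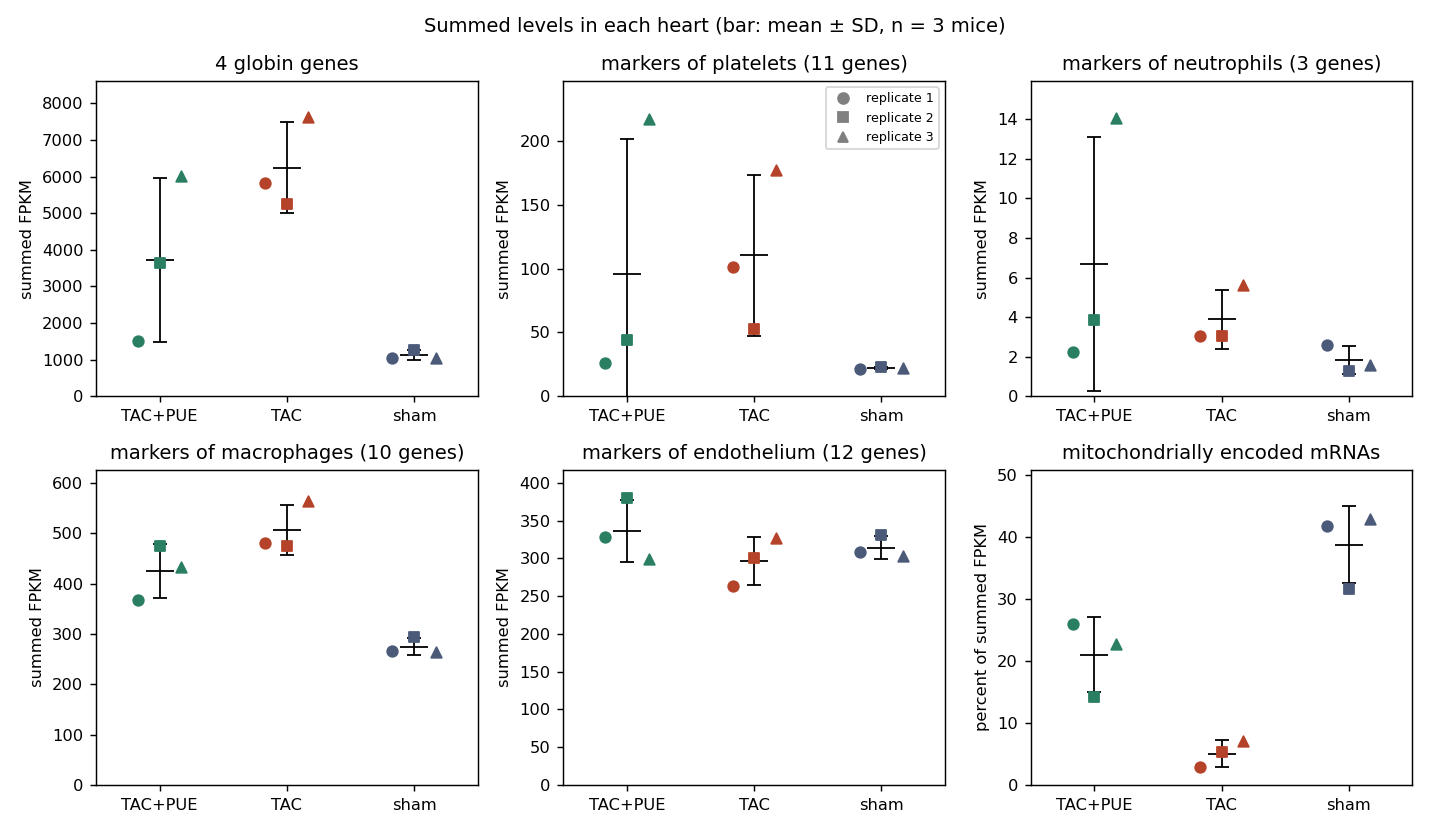
Summed level in each heart (vertical axes, linear, from 0, in FPKM) of the 4 globins and of the platelet, neutrophil, macrophage and endothelial markers in both tables, and the percent of summed FPKM from mitochondrially encoded mRNAs. Symbols are replicates, and bars the mean ± SD (n = 3 mice) with the lower end cut at 0. TAC+PUE replicate 3 is the highest TAC+PUE heart for globins, platelets and neutrophils, and the endothelial sums overlap in all groups.

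The genes most like the globins over the hearts were sought among 11650 genes, by Pearson correlation of log2(FPKM + 1) with the log2 globin sum over the 9 hearts. The points share their group and the scale of their library, so this is a description with no p. Genes with predicted or clone names were left out of the 10 named here and of the 10 named below. The 10 most alike were Slc25a47, Gse1, Rexo1, Dpep1, Rab34, Rps29, Pf4, Isg20, Ube2o and Sf3a2, with r between 0.973 and 0.983. Among them Pf4, platelet factor 4, is a platelet marker, Isg20 is on the reticulocyte list, and Ube2o is a ubiquitin enzyme known to remodel the proteome of reticulocytes. Apart from Pf4 and Isg20 they are on none of the gene lists used here. Ranked among all 11650 genes, Cygb, which is not a red cell gene, stood at 15 (r = 0.971) and Alas2 at 72 (r = 0.951). After the mean of each group was taken off, which leaves mainly the wide spread of the 3 TAC+PUE hearts, the 10 most alike were Mturn, Dpep1, Pdxk, Fibin, Gchfr, Alas2, Ogg1, Adh1, Slc25a47 and Nadk2, with r between 0.952 and 0.981. Alas2 was at rank 6 (r = 0.959), and the others of this set are on none of the gene lists used here. Slc25a47 and Dpep1 were in both sets.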

How the data were processed

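Total RNA of heart tissue from 3 TAC+PUE, 3 TAC and 3 sham mice was made into stranded libraries and sequenced in pairs. By the study's methods, the authors mapped reads with Hisat2, then built and measured transcripts with StringTie and Ballgown, and the submitters' processing notes name the build mm9. Gene-level FPKM were deposited as a table per comparison, each with 6 libraries. The methods name TPM, but the file headers name FPKM, which was followed. Their columns of fold changes and p-values, and the lists of lncRNA transcripts, were not used here. FPKM removes depth and gene length, so a very abundant transcript lowers all others, and no count test could be made. Standard errors are given in place of intervals. The larger group mean of a gene was never below 0.500 FPKM in either table.

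Groups came from the sample labels, and each library is 1 mouse. Differences were fitted with limma 3.58.1 (R 4.3.3, eBayes with trend) on log2(FPKM + 1), 3 libraries against 3, keeping genes that reached 1 FPKM in 3 or more of 6 libraries, as a two-sided test with p-values adjusted over all genes by Benjamini-Hochberg and a threshold of 0.05. A pseudocount of 1 understates the change of low genes. The members and gene lists were chosen with earlier results of these data known. From each list up to 4 genes per comparison were named, those called with the largest change, apart from some that are not reported here. For the lists on other cells in TAC+PUE against TAC only counts are given. The lists covered red cell identity, reticulocytes, other globins, haem synthesis, haem breakdown, iron, arteriolar partners of alpha globin, 7 kinds of cells or chambers, hypertrophy, mitochondrially encoded mRNAs and rRNA-like transcripts.

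On simulated data a change of 1 on the log2 scale was called for 86.6% of altered genes in TAC against sham (11687 genes) and 62.7% in TAC+PUE against TAC (11788 genes). Only 200 genes were altered there, all upward, and the noise was drawn separately for each gene. In the hearts far more genes were called, and many differed together between libraries. These shares therefore do not say how many true changes were found in the hearts. Alternatives were pseudocounts of 0.1 and 5, no filter or one at 10 FPKM, 3 other scalings, eBayes without trend, the replicate number as a block, and each library left out. Leaving out the libraries of at least 100 FPKM of Myl7 was chosen after seeing the data. Python 3.11.15 with pandas 2.3.3 was used for the rest.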

Additional observations from a re-analysis of the deposited data

How the results depend on the processing

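The sign of the difference was kept for 5 of 5 members in both comparisons under every alternative run, except that without TAC+PUE replicate 1 Hbb-bs and Alas2 were higher in TAC+PUE than in TAC (range over members -0.64 to 0.23). Once rRNA-like transcripts were taken out and totals made equal, TAC against sham was 3.05 for Hba-a1, 3.39 for Hba-a2, 2.31 for Hbb-bs, 3.0 for Hbb-bt and 2.19 for Alas2, larger than with the deposited values. With mitochondrially encoded mRNAs removed as well it was 2.42 for Hba-a1, 2.76 for Hba-a2, 1.67 for Hbb-bs, 2.37 for Hbb-bt and 1.61 for Alas2. These were smaller than with the deposited values. With median-ratio scaling TAC+PUE against TAC was -1.39 for Hba-a1, -1.60 for Hba-a2, -0.76 for Hbb-bs, -1.38 for Hbb-bt and -0.64 for Alas2. Removing rRNA-like transcripts alone also moved the median of all genes in TAC against sham to 0.30, and median-ratio scaling moved it to 0.02, against -0.12 as deposited. In TAC+PUE against TAC the same scalings gave medians of -0.01 and -0.05, against 0.24. The share of calls that were higher was 40.1% in TAC against sham as deposited, 50.8% with median-ratio scaling and 70.4% with rRNA-like transcripts removed. In TAC+PUE against TAC it was 85.8%, 44.4% and 51.4% in the same order. With the libraries of at least 100 FPKM of Myl7 left out, TAC+PUE against TAC was -1.90 for Hba-a1, -2.28 for Hba-a2, -1.24 for Hbb-bs and -1.98 for Hbb-bt, with the lone TAC+PUE heart assumed to vary like the others.

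Of the other red cell genes, those called higher in TAC against sham (1 as deposited) numbered 2 with a pseudocount of 5, 4 with no filter, 0 with a filter at 10 FPKM, 3 with median-ratio scaling, 8 with rRNA-like transcripts removed and 2 with mitochondrially encoded mRNAs removed as well. Those called lower (1 as deposited) numbered 0 with a filter at 10 FPKM and 0 with rRNA-like transcripts removed. In TAC+PUE against TAC the red cell genes called lower (1 as deposited) numbered 2 with no filter, 0 with a filter at 10 FPKM, 3 with median-ratio scaling, 3 with rRNA-like transcripts removed, 2 with mitochondrially encoded mRNAs removed as well and 0 with the Myl7-rich libraries left out. Of all genes, 5.45% were called lower there as deposited and 22.7% with median-ratio scaling. The share was 18.7% with rRNA-like transcripts removed and 8.53% with mitochondrially encoded mRNAs removed as well. The share of all genes thus moved with the scaling too, and nothing is read from the changed counts. The cause of the changed counts was not tested, except that a stricter filter leaves fewer genes to call and no filter leaves more, and that Slc4a1 missed the filter without the Myl7-rich libraries. Leaving out 1 library at a time, the counts of red cell genes were 0 to 1 higher and 0 to 1 lower in TAC against sham, and 0 to 1 higher and 1 to 2 lower in TAC+PUE against TAC. In TAC against sham, Slc4a1 missed the filter whenever a TAC heart was left out. The 1 gene called higher without TAC replicate 1 or 3 was therefore not Slc4a1. Over all genes 49.0% to 65.0% were then called in TAC against sham and 22.0% to 41.5% in TAC+PUE against TAC, lowest without TAC+PUE replicate 1.

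The TAC+PUE minus TAC difference of Cygb, not called, ranged from -0.25 to 0.032 with 1 library left out, and was above 0 without TAC+PUE replicate 1. With rRNA-like transcripts removed the calls of Cd163 (-0.02) and Tek (-0.29) in TAC against sham were lost, and with that or median-ratio scaling those of Bnip3l, Cat, Ucp2 and Pgrmc1 in TAC+PUE against TAC (0.13 to 0.32). With mitochondrially encoded mRNAs removed as well, the calls of S100a9 (0.63) and Cyb5r1 (0.38) in TAC against sham were lost. The replicate numbers are shared by the groups, but same-numbered hearts did not deviate together in the pairs of groups fitted (correlations of -0.02, 0.00 and 0.06 for TAC and sham and of -0.26, -0.10 and 0.19 for TAC+PUE and TAC), so they were not treated as pairs. For TAC+PUE and sham, which were not fitted, the correlations were 0.19, 0.30 and 0.04. With the replicate block 62.9% of genes were called in TAC against sham, against 63% without it, and 33.8% in TAC+PUE against TAC, against 38.4%.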

Other observations

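Tfrc, the transferrin receptor through which red cell precursors and other cells take up iron, was singled out after its values were seen. It was at 30.2, 11.8 and 9.83 FPKM in TAC+PUE, 6.91, 10.4 and 9.29 FPKM in TAC, and 8.11, 7.91 and 8.26 FPKM in sham. The high value was in TAC+PUE replicate 1, the TAC+PUE heart with the lowest globin levels, and Tfrc did not pass the threshold in TAC+PUE against TAC (difference 0.74, limma adjusted p = 0.0974).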
